A study of Mus musculus with 6 samples.

Results

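Genes of DNA methylation and its removal were read in the hippocampus of mice given saline or methamphetamine (MA). They comprise the DNA methyltransferases Dnmt1 and Dnmt3a, the dioxygenases Tet1, Tet2 and Tet3, the glycosylase Tdg, and the stress-inducible family Gadd45a, Gadd45b and Gadd45g. The genes were chosen by name, and each of the 9 was found on 1 row of the 16060 rows of the deposited table. RNA came from adult male C57BL/6 mice, 3 of the control group, which received saline intraperitoneally, and 3 of the MA group, which received MA in doses that were raised from week to week. The animals were killed after open field and elevated plus maze testing. Each library of hippocampus is taken as 1 mouse, since no pooling is described, though this is not stated outright. No sorting of cells is described, so fewer cells of a type and less RNA per cell cannot be told apart. The direction of every difference below is that of the column labels, and "MA library", "MA column" and their control counterparts mean a library so labelled. This direction is unsettled: the study describes Gadd45b and several immediate early genes as raised by MA. For some of the immediate early genes, though not for Gadd45b, the study also reports a rise under MA by qPCR. In the columns labelled MA, by contrast, Gadd45b and these immediate early genes are lower. If the labels of the columns were exchanged, every sign below would turn, while the sizes and p-values would stand. Nothing in the table settles it.

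Methylation of cytosine in CG dinucleotides is set on DNA by Dnmt3a and copied to the daughter strand after replication by Dnmt1. It is removed in steps, in which the Tet enzymes oxidise 5-methylcytosine to 5-hydroxymethylcytosine and on to further oxidised bases, Tdg cuts the latter out, and base excision repair restores an unmodified cytosine. The Gadd45 proteins are small acidic adaptors without enzyme activity of their own that respond to DNA damage and growth arrest signals, bind stress kinases and cell cycle proteins, and have been placed beside the demethylation machinery at selected promoters. In the hippocampus Gadd45b is known as an immediate early gene, switched on by neuronal activity in dentate granule cells, and Dnmt3a and Tet genes are studied for their part in memory.

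CG dinucleotides are the substrate of the enzymes in this group, and the 3 Gadd45 genes themselves differ in how many they carry just upstream of their start. The 250 bases before the annotated start were taken from RefSeq on GRCm38.p6. The window of Gadd45a lies at chr6:67037408-67037657 on the minus strand, that of Gadd45b at chr10:80929841-80930090 on the plus strand and that of Gadd45g at chr13:51846425-51846674 on the plus strand. They are printed 5′ to 3′ in the direction of the gene, with each CG in capitals.
Gadd45a: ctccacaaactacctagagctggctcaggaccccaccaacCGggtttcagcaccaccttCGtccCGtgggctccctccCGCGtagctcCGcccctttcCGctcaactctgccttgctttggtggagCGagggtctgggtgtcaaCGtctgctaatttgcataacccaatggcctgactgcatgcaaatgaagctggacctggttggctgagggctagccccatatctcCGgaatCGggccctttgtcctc
Gadd45b: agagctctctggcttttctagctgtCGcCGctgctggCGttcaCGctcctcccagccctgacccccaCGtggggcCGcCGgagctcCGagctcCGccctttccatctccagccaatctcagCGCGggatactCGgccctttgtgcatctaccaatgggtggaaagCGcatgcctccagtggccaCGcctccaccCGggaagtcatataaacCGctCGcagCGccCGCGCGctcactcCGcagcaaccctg
Gadd45g: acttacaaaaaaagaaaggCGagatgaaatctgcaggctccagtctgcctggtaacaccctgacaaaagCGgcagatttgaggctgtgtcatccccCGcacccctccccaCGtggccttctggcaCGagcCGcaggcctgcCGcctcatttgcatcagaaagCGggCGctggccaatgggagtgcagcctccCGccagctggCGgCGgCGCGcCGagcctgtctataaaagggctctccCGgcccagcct
The Gadd45b window held 22 CG, the Gadd45g window 16 and the Gadd45a window 11, where the median of all 32851 promoter windows was 6. Among all windows 85.2% held fewer CG than that of Gadd45b, 74.6% fewer than that of Gadd45g and 64.4% fewer than that of Gadd45a. Among the other members, the windows held 51 CG for Tet2, 19 for Tdg, 17 for Tet3 and 15 for Tet1. The windows of Dnmt3a held 38, 40 and 15 and those of Dnmt1 26, 7 and 2. A link between CG number and change in level was not tested. Methylation itself was not measured in these libraries.

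The promoter windows were also searched on both strands for the cAMP response element TGACGTCA, its shorter core TGACG, which lies within it, the AP-1 site TGANTCA and the CArG box of serum response factor. The shares of all 32851 windows with a match were 1.55% for TGACGTCA, 17.8% for TGACG, 6.75% for TGANTCA and 1.47% for the CArG box. None of the 4 patterns was found in the windows of Gadd45a, Gadd45b or Gadd45g. Of the 13 windows listed for the 9 genes, only that of Tdg held a match, with TGACGTCA from 135 to 128 bases before the start. The stretch is shown because it was the sole match, at chr10:82629683-82629730 of GRCm38.p6 on the plus strand, with the element in capitals.
Tdg: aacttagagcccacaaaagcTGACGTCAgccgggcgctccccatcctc
A match describes letters in a window and not a bound site.

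The libraries were close to each other over all genes and differed in markers of neighbouring tissue. The deposited levels are taken as log2 of RPKM plus 1 (RPKM, reads scaled to gene length and to the mapped reads of the library), and had been brought to nearly the same distribution in every library. Depth is unknown, since read totals are not given. Genes with an RPKM of 0.5 or more in 3 or more of the 6 libraries were tested, which left 13321 genes and kept all 9 members. The neuronal marker Snap25 overlapped between the groups, from 10.05 to 10.20 in control and 9.81 to 10.22 in MA libraries on the log2 scale, as did Prox1, a marker of dentate granule cells, from 3.32 to 3.67 and 3.26 to 3.48. All 6 choroid plexus markers and all 5 blood markers were higher in every MA library than in every control library, where 7.32% of all tested genes were so. The summed RPKM of the choroid plexus markers lay between 64.5 and 419 in the control columns and between 1773 and 5073 in the MA columns, most of it from Ttr, and that of the blood markers between 1599 and 2024 and between 3319 and 4378. MA library 3 stood farthest from its group, with a mean correlation of 0.978 to the other MA libraries, where the remaining libraries had 0.984 to 0.993 to their own group. None of these markers was at 0 in any library. The summed thalamus markers ran from 32.02 to 52.87 and from 52.88 to 107 RPKM, and those of endothelium from 55.7 to 60.6 and from 64.3 to 91.8 RPKM. Gene by gene, only 1 of 6 thalamus markers, Calb2, and 1 of 5 endothelium markers, Cldn5, did not overlap between the groups. Both were higher in MA, as were 7.32% of all tested genes by this rule. No marker of these 2 tissues had a limma adjusted p under 0.05. The summed astrocyte markers overlapped, at 371 to 403 in the control and 309 to 416 in the MA columns. Gene by gene, all 6 had a log2 fold change below 0, where 52.7% of all tested genes did. Of them 1, Aqp4, was lower in every MA library, at -0.36 (limma adjusted p = 0.458), where 10.2% of all tested genes were so.

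Gadd45b was the member that changed, and it was about 2-fold lower in the columns labelled MA, whereas the study lists it as upregulated. Gadd45b (ENSMUSG00000015312) is annotated on chromosome 10, bases 80930073 to 80932204 of GRCm38, plus strand, in 3 exonic stretches that no other annotated gene overlaps. Control libraries 1, 2 and 3 gave 25.7, 21.9 and 20.2 RPKM, and MA libraries 1, 2 and 3 gave 11.4, 11.7 and 11.5 RPKM. Every MA library was thus below every control library, and the MA libraries lay within a far narrower band than the control libraries. On the deposited log2 scale the level was 4.55 ± 0.17 in the control columns and 3.65 ± 0.02 in the MA columns (SD, n = 3 each). The log2 fold change, MA minus control, was -0.90 (standard error 0.10, 95% interval -1.15 to -0.66, limma adjusted p = 0.0315 over 13321 genes). The mean RPKM was 22.6 ± 2.81 and 11.5 ± 0.14, a change of -48.9% and a log2 ratio of -0.97, since the added 1 shrinks the deposited difference slightly. Of all tested genes 0.0976% passed the adjusted threshold of 0.05 as lower in MA and 0.165% as higher, and of the 9 members 1 passed as lower and 0 as higher. Gadd45b was among the genes that the study picked from these same libraries, so its call is no independent evidence. The study lists it as upregulated, under a heading that does not name the numerator of its fold change. The call was lost with the replicate number as a block (limma adjusted p = 0.115), with no filter on low values (limma adjusted p = 0.0684) and in 5 of the 6 fits that left out a library, those without control library 1, 2 or 3 or MA library 1 or 2, while the log2 fold change stayed between -0.98 and -0.81. Without MA library 3 it was -0.90 and the call held (limma adjusted p = 0.0274). The summed choroid plexus markers were 64.5, 173 and 419 RPKM in control libraries 1, 2 and 3, where Gadd45b was 25.7, 21.9 and 20.2 RPKM. In MA libraries 1, 2 and 3 they were 1773, 2303 and 5073 RPKM, beside 11.4, 11.7 and 11.5 RPKM of Gadd45b. The part of the choroid plexus and blood markers in the Gadd45b difference between the groups was not tested.

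Gadd45g, the most abundant of the family, did not follow Gadd45b. Gadd45g (ENSMUSG00000021453), on chromosome 13 from 51846678 to 51848468, stood at 42.0, 45.0 and 36.2 RPKM in the control columns and 38.2, 36.8 and 46.1 RPKM in the MA columns. The highest and the lowest of the 6 values belonged to an MA and a control library, and the groups overlapped. The log2 fold change was -0.02 (standard error 0.12, 95% interval -0.31 to 0.26, limma adjusted p = 0.964), and its sign turned in 3 of the 6 fits without a library. A 2-fold drop like that of Gadd45b lies outside this interval.

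Gadd45a, the p53-responsive member of the family, was lower on average but not separated. Gadd45a (ENSMUSG00000036390), on chromosome 6 from 67035096 to 67037457 on the minus strand, was at 4.94, 7.80 and 6.21 RPKM in the control columns and at 4.06, 4.12 and 5.37 RPKM in the MA columns. The MA library 3 lay above the control library 1, so the groups overlapped. The log2 fold change was -0.40 (standard error 0.17, 95% interval -0.79 to -0.01), which did not pass the adjusted threshold (limma adjusted p = 0.473). It was -0.25 without control library 2 and -0.54 without control library 1. Of the 1764 exonic bases of Gadd45a, 337 are shared with E230016M11Rik on the other strand. It is not stated whether counting used strand. E230016M11Rik was not among the tested genes, so its part in the value is unknown.

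The makeup of the family shifted accordingly. The shares and differences below are made from the levels given above, so they are no further evidence. Gadd45b made up 35.4%, 29.3% and 32.2% of the summed Gadd45 RPKM in the control columns and 21.3%, 22.2% and 18.2% in the MA columns. Gadd45g made up between 57.8% and 60.3% in the control columns and between 69.9% and 73.3% in the MA columns, and neither share overlapped between the groups. The share of Gadd45a, from 6.81% to 10.4% and from 7.56% to 8.53%, overlapped. The summed RPKM of the 3 genes was 69.9 ± 6.44 in the control columns and 56.4 ± 5.69 in the MA columns (SD, n = 3 each). Taken within each library, the log2 difference Gadd45b minus Gadd45g was -0.84 ± 0.16 in the control and -1.72 ± 0.18 in the MA columns, a change of -0.88, and Gadd45b minus Gadd45a was 1.70 ± 0.41 and 1.19 ± 0.19, a change of -0.51 (SD, n = 3 each), or -0.27 without control library 1. For both differences every MA library lay below every control library (exact permutation test, two-sided, p = 0.1 each, adjusted to 0.133 over 4 such differences). With a pseudocount of 0.1 the groups overlapped for Gadd45b minus Gadd45a (exact permutation p = 0.2). The smallest p that 3 libraries against 3 allow is 0.1, so this test could not reach 0.05.

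**Figure D1:**
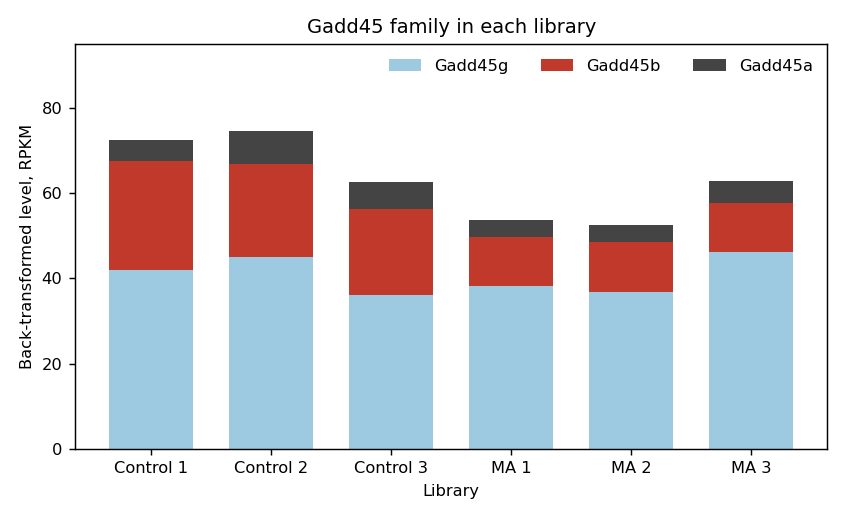
Stacked bars give the back-transformed RPKM of Gadd45g, Gadd45b and Gadd45a in each of the 3 control and 3 MA libraries. The Gadd45b segment is between 20.2 and 25.7 RPKM high in the control columns, whereas the MA columns have 11.4 to 11.7, while the Gadd45g segment spans 36.2 to 45.0 and 36.8 to 46.1.

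The methyltransferases stayed within narrow limits. Dnmt1, the maintenance enzyme (ENSMUSG00000004099, chromosome 9 from 20907209 to 20959888), was at 6.71, 6.72 and 6.61 RPKM in the control columns and 7.07, 6.84 and 6.77 RPKM in the MA columns. Every MA library was above every control library, by a small step. The log2 fold change was 0.04 (standard error 0.08, 95% interval -0.16 to 0.24, limma adjusted p = 0.918), or 0.02 without MA library 1, and the mean RPKM differed by 3.19%. Dnmt3a, the de novo enzyme (ENSMUSG00000020661, chromosome 12 from 3806007 to 3914443), was at 7.15, 7.31 and 7.97 RPKM in the control columns and 6.81, 6.84 and 6.69 RPKM in the MA columns. Here every MA library was below every control library, at a log2 fold change of -0.12 (standard error 0.09, 95% interval -0.33 to 0.08, limma adjusted p = 0.693), or -0.08 without control library 3. Its exons share 133 bases with the antisense gene Dnmt3aos, out of 16642 exonic bases. The log2 difference Dnmt3a minus Dnmt1 within a library was 0.14 ± 0.08 in the control and -0.02 ± 0.03 in the MA columns (SD, n = 3 each), without overlap (exact permutation test, two-sided, p = 0.1, adjusted to 0.133). Dnmt3a thus made up between 51.6% and 54.7% of the summed RPKM of the pair in the control columns and between 49.0% and 50.0% in the MA columns.

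Of the Tet enzymes, Tet2 and Tet3 were expressed at a like level and Tet1 was near the limit of the filter. Tet3 (ENSMUSG00000034832, chromosome 6 from 83362373 to 83459084, minus strand) was at 4.58, 4.21 and 4.35 RPKM in the control columns and 3.75, 3.86 and 3.40 RPKM in the MA columns. The groups did not overlap, and the mean RPKM of the MA columns differed by -16.3%. Its log2 fold change of -0.21 (standard error 0.10, 95% interval -0.43 to 0.02) did not pass the threshold (limma adjusted p = 0.517). Tet2 (ENSMUSG00000040943, chromosome 3 from 133463679 to 133545139, minus strand) was at 3.91, 4.41 and 4.49 RPKM in the control and 3.96, 4.197 and 3.32 RPKM in the MA columns, with overlap and a log2 fold change of -0.13 (95% interval -0.39 to 0.13, limma adjusted p = 0.748), or -0.05 without MA library 3. Tet2 shares 43 exonic bases with Gm42567 on the other strand. Tet1 (ENSMUSG00000047146, chromosome 10 from 62804570 to 62908996, minus strand) was at 0.506, 0.407 and 0.568 RPKM in the control and 0.486, 0.562 and 0.272 RPKM in the MA columns. The lowest of these 6 values came from MA library 3, and the log2 fold change of -0.06 (95% interval -0.34 to 0.23, limma adjusted p = 0.919) turned to 0.03 without that library. At this level the added 1 compresses any difference, so the interval of Tet1 understates what it allows on the RPKM scale. Tet3 minus Tet1 within a library overlapped between the groups, at 1.85 ± 0.07 and 1.70 ± 0.08 on the log2 scale (SD, n = 3 each; exact permutation test, two-sided, p = 0.2).

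Tdg, the glycosylase that acts after the Tet enzymes (ENSMUSG00000034674, chromosome 10 from 82629828 to 82650799), was at 16.8, 15.04 and 14.95 RPKM in the control columns and 13.1, 14.97 and 14.6 RPKM in the MA columns. The MA library 2 fell among the control libraries, and the log2 fold change of -0.12 (95% interval -0.34 to 0.09) did not pass the threshold (limma adjusted p = 0.709). It was -0.07 without control library 1 and likewise without MA library 1. Tdg shares 367 exonic bases with Glt8d2 on the other strand, whose log2 fold change was -0.39 (limma adjusted p = 0.357).

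**Figure D2:**
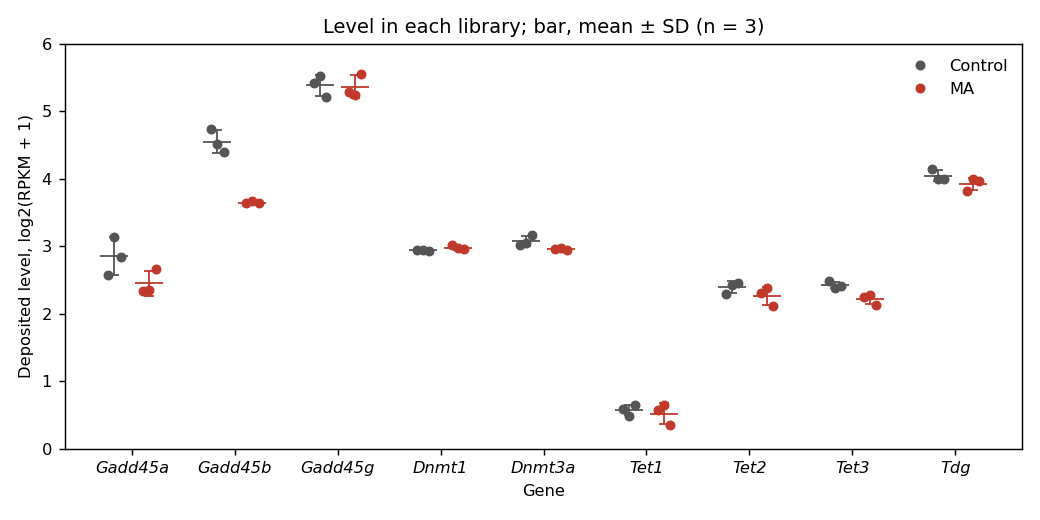
Points give the deposited level, as log2 of RPKM plus 1, of each of the 9 genes in the 3 control (grey) and 3 MA (red) libraries, with bars for the mean ± SD. The groups stand clearly apart for Gadd45b, at 4.55 ± 0.17 and 3.65 ± 0.02, while the Dnmt1 groups differ by 0.04 and those of Gadd45g by 0.02.

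Counted together, 8 of the 9 members had a log2 fold change below 0, with a median of -0.12, where 52.7% of all tested genes were below 0 and the median was -0.01. An unadjusted limma p under 0.05 was reached by 2 members as lower in MA, Gadd45a and Gadd45b, and by 0 as higher, where 5.46% of all tested genes were lower and 4.99% higher by this rule. The groups did not overlap in 3 members that were lower in MA, Gadd45b, Dnmt3a and Tet3, and in 1 that was higher, Dnmt1, where 10.2% and 7.32% of all tested genes were so. Beside Gadd45b, these separations amounted to -16.3%, -9.29% and 3.19% of the mean RPKM for Tet3, Dnmt3a and Dnmt1.

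**Figure D3:**
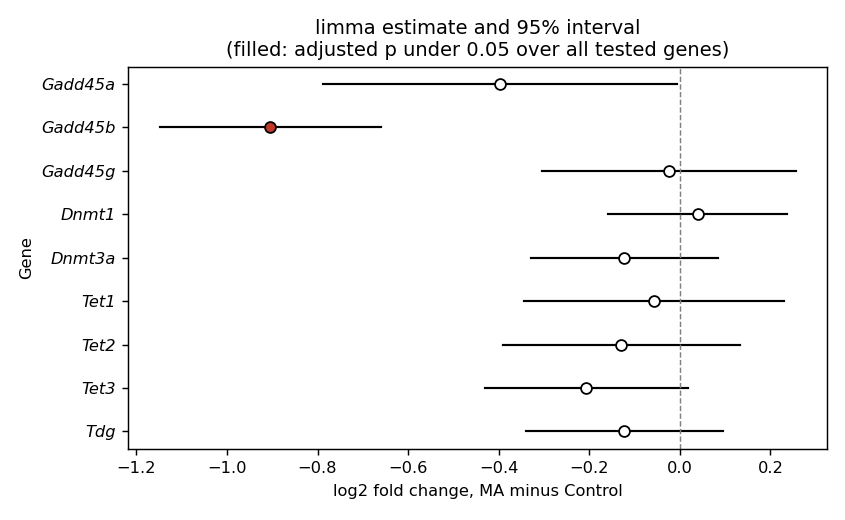
Points give the limma log2 fold change (MA minus control) of each member on the horizontal axis and lines its 95% interval, with the point filled where the adjusted p passed 0.05. The interval of Gadd45b runs from -1.15 to -0.66, that of Gadd45a ends at -0.01, and those of the other 7 members include 0.

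Because RPKM is scaled to gene length, the members can be set in order within a library. In the control libraries the order of the means was Gadd45g at 41.0, Gadd45b at 22.6, Tdg at 15.6, Dnmt3a at 7.48, Dnmt1 at 6.68, Gadd45a at 6.32, Tet3 at 4.38, Tet2 at 4.27 and Tet1 at 0.494 RPKM. The ranges of neighbours in this order overlapped only for Dnmt1 with Gadd45a and for Tet3 with Tet2. In the MA libraries Tdg, at 14.2 RPKM, stood above Gadd45b, at 11.5 RPKM, in 3 of 3 libraries, whereas Gadd45b stood above Tdg in 3 of 3 control libraries. Dnmt1, at 6.89 RPKM, came before Dnmt3a, at 6.78 RPKM, in 2 of 3 MA libraries with overlapping ranges, and Dnmt3a came first in 3 of 3 control libraries. Gadd45a with Tet2 and Tet2 with Tet3 also overlapped in the MA columns.

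The wider pathway was read from 6 lists of 81 genes that include the members. Of these, 78 were in the table and 70 were tested, and 1, Gadd45b, passed the adjusted threshold (limma). Of all tested genes 0.0976% passed it as lower in MA and 0.165% as higher, and 52.7% were below 0. An unadjusted p under 0.05 was reached by 3 of the 70 as higher and 2 as lower in MA, where 4.99% and 5.46% of all tested genes were so. Among writers and maintenance factors, 4 of 6 tested genes were below 0 and the median log2 fold change was -0.11. Uhrf2, a relative of the factor that brings Dnmt1 to newly copied DNA, had -0.27 (limma adjusted p = 0.513) and Dmap1, a Dnmt1-binding protein, 0.16 (limma adjusted p = 0.696). Dnmt3b, the other de novo methyltransferase, and Dnmt3l, its partner without enzyme activity, were below the filter. The readers, taken from families with members that bind methylated CG, had a median of 0.01 with 4 of 9 below 0. The smallest p among them belonged to Mbd6 at 0.44, Mbd2 at -0.20 and Zbtb4 at 0.26 (limma adjusted p = 0.658, 0.679 and 0.769). The Mbd6 value rested on MA library 3, at 20.5 RPKM where the other 5 libraries ran from 7.24 to 9.90 RPKM.

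In the list of Tet oxidation and its modulators, 5 of 9 tested genes were below 0 and the median was -0.06. Idh2, which makes the 2-oxoglutarate that Tet enzymes consume, was at 28.1, 30.6 and 29.1 RPKM in the control columns and 33.0, 36.9 and 42.2 RPKM in the MA columns. The groups did not overlap and the log2 fold change of 0.33 (standard error 0.10) did not pass the threshold (limma adjusted p = 0.345). Cxxc5, a CG-binding protein linked to Tet2, had -0.21 (limma adjusted p = 0.480). In deamination and base excision repair 11 of 20 were below 0 and the median was -0.02. Apobec1, a cytidine deaminase, had 0.40 and Parp1, a sensor of strand breaks, -0.23 (limma adjusted p = 0.397 and 0.563). Among genes of methyl donor supply, 3 of 13 were below 0 and the median was 0.06. Gnmt, which uses up S-adenosylmethionine, was at 0.640, 0.542 and 0.498 RPKM in the control and 0.934, 1.31 and 1.62 RPKM in the MA columns, at a log2 fold change of 0.54 (SE 0.14, limma adjusted p = 0.249). In the control columns Gnmt lay near the filter of 0.5 RPKM, as did Apobec1, at 0.565 to 0.672 RPKM. Mtrr, which keeps methionine synthase active, had -0.20 (limma adjusted p = 0.588).

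Among the Gadd45 family and its partners, 10 of 13 tested genes were below 0 with a median of -0.02. Map3k4, the stress kinase that Gadd45 proteins activate, had a log2 fold change of -0.01 and Pcna, the replication clamp they bind, had -0.01 (limma adjusted p = 0.992 and 0.985). Ing1, a chromatin protein that has been tied to Gadd45a recruitment, had -0.22 without overlap of the groups (limma adjusted p = 0.487). Cdkn1a, the cell cycle inhibitor p21, had 0.50 with overlap (limma adjusted p = 0.573). Ddit3 and Ppp1r15a, which share only the growth arrest and DNA damage name, had -0.36 and -0.14 (limma adjusted p = 0.516 and 0.692). Ppp1r15b, listed with them as a relative of Ppp1r15a without that name, had -0.32 (limma adjusted p = 0.344). Bdnf and Fgf1, whose promoters lose methylation with the help of Gadd45b in activated dentate gyrus, gave no call. Bdnf was at 12.5, 9.43 and 10.2 RPKM in the control and 7.73, 8.56 and 7.97 RPKM in the MA columns, which did not overlap, at a log2 fold change of -0.36 (SE 0.12, limma adjusted p = 0.354). Fgf1 had 0.18 with overlap (limma adjusted p = 0.740).

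**Figure D4:**
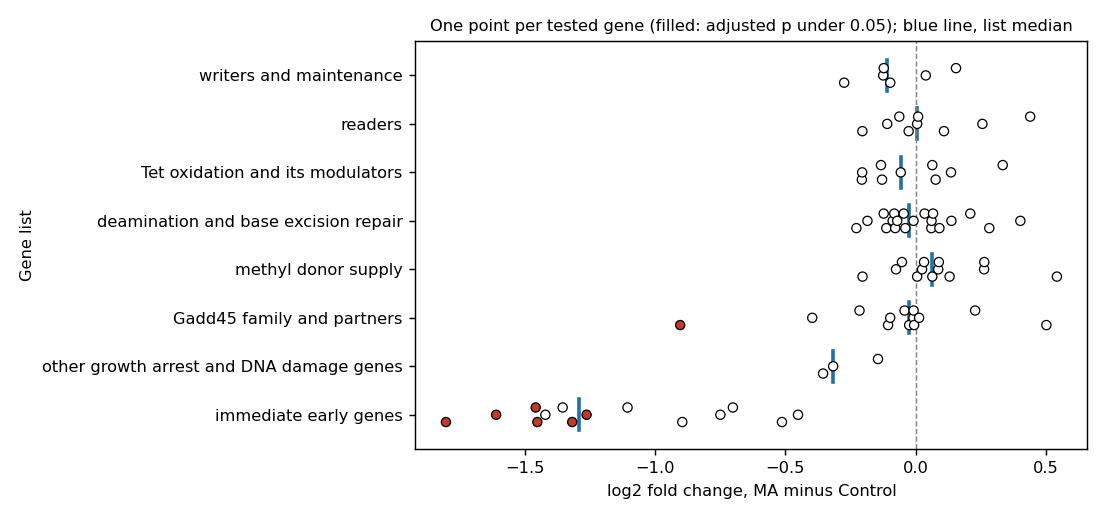
Each point is the limma log2 fold change (MA minus control) of a tested gene, with lists in rows, filled points for an adjusted p under 0.05 and a blue line at the median of the list. In the 6 methylation and Gadd45 lists only the Gadd45b point, at -0.90, is filled, and medians lie between -0.11 and 0.06, while the immediate early genes have a median of -1.29.

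Gadd45b also belongs by its known regulation to the immediate early genes, a group switched on by neuronal activity without new protein synthesis. Of 14 such genes taken for comparison, 14 were below 0 with a median of -1.29, where 52.7% of all tested genes were below 0. The adjusted threshold was passed by 6, Egr1, Arc, Fosb, Nr4a1, Fos and Junb, with log2 fold changes from -1.80 for Arc to -1.26 for Junb. Of all tested genes 0.0976% passed it as lower in MA. The study describes several of these genes as raised by MA, by sequencing and, for Fos, Egr1, Arc and Nr4a1, also by qPCR. The labelled columns show the opposite. The list was written with earlier results of these libraries known, so it is no independent support. By size, Gadd45b at -0.90 stood beside Homer1 at -0.90, closer to 0 than the list's median. The 5 tested genes whose values, centred on their mean, lay nearest to those of Gadd45b over the 6 libraries were Manf, Xbp1, Dusp6, Dusp5 and P4ha1. Their Euclidean distances were 0.208, 0.254, 0.274, 0.293 and 0.308 on the log2 scale, where the median over all tested genes was 1.17. Manf encodes a protein of the endoplasmic reticulum that is secreted on stress, Xbp1 a factor of the unfolded protein response, Dusp6 and Dusp5 phosphatases that act on ERK, and P4ha1 a subunit of prolyl 4-hydroxylase. Manf and Xbp1 had log2 fold changes of -0.85 and -0.82 (limma adjusted p = 0.0315 each), and Dusp6, Dusp5 and P4ha1 had -0.75, -0.74 and -0.74 (limma adjusted p = 0.138, 0.147 and 0.0785). All 5 were lower in every MA library than in every control library, which the nearness to Gadd45b brings with it.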

How the data were processed

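Hippocampal RNA of 6 samples, 3 per group, was analysed from 1 deposited table with 6 value columns. Each column was matched to a sample by its title, and each sample was taken as 1 mouse. Per the paper, Hisat2 alignment and featureCounts were followed by conversion of counts to FPKM, while the submitters' processing notes list Bowtie 0.12.2 and the builds mm8 and mm9; the build behind the table is thus unsettled, and locations from GENCODE M21 and promoters from RefSeq, both on GRCm38, are given for orientation only. The authors deposited values named RPKM that lie on a log2 scale with an offset read as 1: back-transformed in base 2 they sum to between 487712 and 488572 per library. The log transform and the normalization between libraries are not described.

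The deposited values were tested with limma 3.58.1 in R 4.3.3 (lmFit, eBayes with a trend, no covariate), with Benjamini-Hochberg adjustment over 13321 genes at a threshold of 0.05. Genes under an RPKM of 0.5 in more than 3 libraries were left out. Differences between members within a library were compared by exact permutation, two-sided. The fit was tested on simulated data. The members, the gene lists and the tests were chosen with earlier results of these data known. Named genes were the members, the called genes and the 3 with the smallest p of each pathway list, and the 5 nearest to Gadd45b. Some genes that this rule selects are not reported here. Other genes named, Map3k4, Pcna, Cdkn1a and Homer1, were chosen after their values were seen. Alternatives were a pseudocount of 0.1, no filter, a minimum mean of 5, quantile normalization, centring on the median, sample quality weights, eBayes with no trend, the replicate block and leaving out each library. No text says that the 3 mice of a group were housed or processed apart, so p-values measure the spread between these samples.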

Additional observations from a re-analysis of the deposited data

How the results depend on the processing

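The count of 35 genes past the adjusted threshold in limma changed to 3 with no filter, 20 with a minimum mean of 5, 15 with the replicate block and 586 with sample quality weights, and lay between 0 and 257 when a library was left out. It was 3 without control library 1, 15 without MA library 1, 0 without control library 2 or 3 or MA library 2, and 257 without MA library 3, the library with the lowest weight of 0.194. In the fits with 0 calls, limma gave 911, 1011 and 1031 genes at an unadjusted p under 0.05. The count of 1 member, Gadd45b, became 0 under the replicate block and in the unfiltered fit, and lay between 0 and 1 when a library was left out. The cause was not tested. Gadd45b kept its sign in every alternative run, with limma adjusted p-values between 0.00557 and 0.14, and its log2 fold change was -0.96 with a pseudocount of 0.1. Leaving out a library put Gadd45g between -0.122 and 0.0425, above 0 without control library 2, MA library 1 or MA library 2, and Tet1 between -0.118 and 0.0300, above 0 without MA library 3. Tet1 was at 0.0449 with sample quality weights. With a minimum mean of 5, only 6 members were tested. The 4 within-library differences kept their sign with a pseudocount of 0.1 and without each library, but that pseudocount ended the separation of the groups for Gadd45b minus Gadd45a (exact permutation p = 0.2). Across genes, the deviations of libraries with the same number correlated at -0.197, -0.242 and -0.337, so the numbers were not taken to pair the mice. Depth is unknown, so what it limits for low genes such as Tet1 cannot be stated.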
